A study of Bos taurus with 86 samples.

Results

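The 14 embryos of the IVD group are described here, by the level of their transcripts and by how far those levels differed from one embryo to the next. They were taken as every bovine embryo that the labels place in that group, 14 of 43 embryos and 28 of 86 arrays, and the other groups are AI (14 embryos, read as artificial insemination) and IVF (15 embryos, IVF read as fertilization in vitro). What the letters IVD stand for is not said in the labels, which also give no stage, sex, age or breed for any embryo. The series title asks how maturation, fertilization and culture in vitro act on the expression profile of a single embryo. Each embryo was 1 biological sample. Its RNA went through 3 rounds of linear amplification, the common reference RNA through 2, and each embryo was hybridised against that reference on 2 cDNA arrays with the dyes exchanged. IVD embryos are numbered 1 to 6, 8 to 11 and 12_1 to 12_4. The last 4 share the first part of their number, what it marks is not stated, and the 14 embryos may therefore not all be independent.

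Bovine embryos are commonly studied as blastocysts, which have an outer epithelium, the trophectoderm, around a fluid-filled cavity and an inner cell mass. The trophectoderm seals the cavity with tight junctions, carries simple keratins and gives rise to the trophoblast of the placenta. In ruminants the trophoblast secretes products of large gene families, the pregnancy-associated glycoproteins (PAG, inactive or active relatives of aspartic proteases) and the trophoblast Kunitz domain proteins (TKDP, relatives of protease inhibitors). A single embryo cannot be sampled again, so a dye swap measures only the repeatability of the arrays.

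Every level below is a log2 ratio of embryo to reference, centred so that 0 is the median of the array and not equal abundance. Which dye is the numerator is not stated. Embryo over reference is the likely direction, from markers of the expected and of other tissues: of 23 measured genes of a trophectoderm list 14 were higher than the reference and 0 lower, and of 9 genes of blood and immune cells 0 were higher and 5 lower. With the opposite direction every level would change sign, and no SD would change. The IVD arrays held 13754 to 15618 measured rows of 16416, and the 2 arrays of an embryo correlated at r = 0.589 to 0.767 across rows once turned the same way. The 10922 rows measured on all 28 arrays gave 6658 features, of which 3629 were named genes and 3029 were rows without a single gene name. Of the named genes 595 had more than 1 clone, and the median correlation between clones of a gene over the 14 embryos was 0.294, against a median of 0.877 between the 2 arrays of a gene. The mean over clones is given for such genes.

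Transcripts of the trophectoderm and of sealing epithelia were among the highest over the reference in IVD embryos, and the lowest single genes included COL3A1, TNC and VIM of connective tissue. Of 6658 features, 878 (13.2%) were at least 2-fold higher than the array median and 942 (14.1%) at least 2-fold lower (limma, Benjamini-Hochberg adjusted p under 0.05). Among named genes 509 were higher and 514 lower, and 201 and 217 of them were past 2-fold in 14 of 14 embryos. The split between higher and lower moved with the dye: the arrays with the embryo in Cy3 alone gave 1354 higher and 780 lower, those with it in Cy5 alone 833 and 1511. With the arrays centred on all their measured rows there were 939 higher and 861 lower, so which side held more features also turned with the centring.

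PTGS2, the inducible cyclooxygenase of prostaglandin synthesis, had the highest mean of any named gene, 6.10 (SE 0.127, n = 14), from 4.52 in embryo 6 through a median of 6.24 to 6.54 in embryo 2. The next lowest embryo was at 5.83, so embryo 6 stood by itself below 13 closely placed embryos. ENPEP, a membrane aminopeptidase, had a mean of 5.90 (SE 0.076) with embryos from 5.21 to 6.37. AQP3, a water and glycerol channel, had a mean of 4.63 (5.19 highest, 4.15 lowest), and its 3 clones followed each other (r of 0.878 to 0.933). The tight junction protein CLDN6 was at 4.15 (3.37 to 4.53), the epithelial splicing regulator ESRP1 at 4.01 (3.38 to 4.32) and the folate receptor FOLR1 at 3.89 (3.15 to 4.51). In each of these genes all 14 embryos stood far above the array median, and no embryo's value approached it. The other genes among the 12 highest were TIMM23 (5.09), MPZL2 (4.69), FADD (4.22), BCO2 (4.18), CCDC68 (4.11) and ZNF350 (3.95), which do not form 1 group by tissue.

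COL3A1, a fibrillar collagen of connective tissue, had the lowest mean of the named genes, -6.67 (SE 0.057, n = 14), with all embryos between -7.09 and -6.38. The matrix glycoprotein TNC was at -6.32 (-6.61 to -5.84) and VIM, the intermediate filament of mesenchymal cells, at -5.64 (-5.85 to -5.36). The caveolar protein CAV1 was at -5.41 (-6.13 to -4.35), the endothelial proteoglycan ESM1 at -5.31 and LAPTM5, a lysosomal protein of blood cells, at -4.52. The other genes among the 12 lowest were TCAM1, SGCE, PCLAF, MTURN, ACSL5 and FHL1, which do not form 1 group by tissue. For COL3A1, VIM and LAPTM5 the embryos did not differ past the threshold of the test for an embryo effect (described below). These ratios also depend on what the reference RNA contains, which is the same RNA on every array.

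The trophectoderm list, 23 measured of 35 listed, had a median log2 ratio of 1.68 against -0.05 for all features; since this list also served to settle the direction, its sign is not independent evidence. TFAP2C and GATA3, transcription factors of the trophectoderm, had means of 3.70 (2.57 to 4.47) and 2.88 (2.33 to 4.15). The value of GATA3 averages 2 clones with means of -0.05 and 5.82 that correlated at 0.18 over embryos. The keratins KRT18, KRT19 and KRT8 had means of 2.80, 1.68 and 1.12, and HAND1, a factor of later trophoblast, was at -0.04 with an SD over embryos of 0.160 (2 clones at -0.52 and 0.45). Of 19 measured genes of junctions and blastocoel formation 11 were higher and 0 lower (median 1.12), with CGN, the tight junction protein cingulin, at 2.08. Of the 4 measured genes of the inner cell mass and pluripotency list, KLF4 (2.43) and SALL4 (1.10) were higher. Of 8 genes of the primitive endoderm APOA1 was higher (2.23), and SPARC and TF were lower.

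The lists of glycolysis, respiration, ribosomal proteins and matrix had medians around or below the array median. Over all features 13.2% were higher and 14.1% lower, and several counts in this paragraph lie near or under these shares. Of 15 genes of glucose uptake and glycolysis 1 was higher, the glucose transporter SLC2A3 (2.37), and 7 were lower, among them GAPDH (-2.60), ENO1 (-2.43) and LDHA (-1.39). Of 39 cytosolic ribosomal proteins 0 were higher and 13 lower (median -0.75). Mitochondrial ribosomal proteins, 37 genes, had a median of 0.10 with 5 higher and 4 lower, and the 41 genes of oxidative phosphorylation had a median of -0.15 with 3 higher and 3 lower. Of 40 genes of the extracellular matrix, integrins and cytoskeleton 3 were higher and 11 lower. Among markers of cells that could travel with an embryo, HSD3B1, a steroid enzyme of granulosa cells, was the 1 of 5 cumulus and granulosa genes called, and it was lower (-1.90). SPP1 was the 1 of 4 oviduct and endometrium genes called, also lower (-2.94). The maternal oocyte list had 1 measured gene, GTSF1 at 1.44, and the sperm and Y-linked lists had 0.

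**Figure D1:**
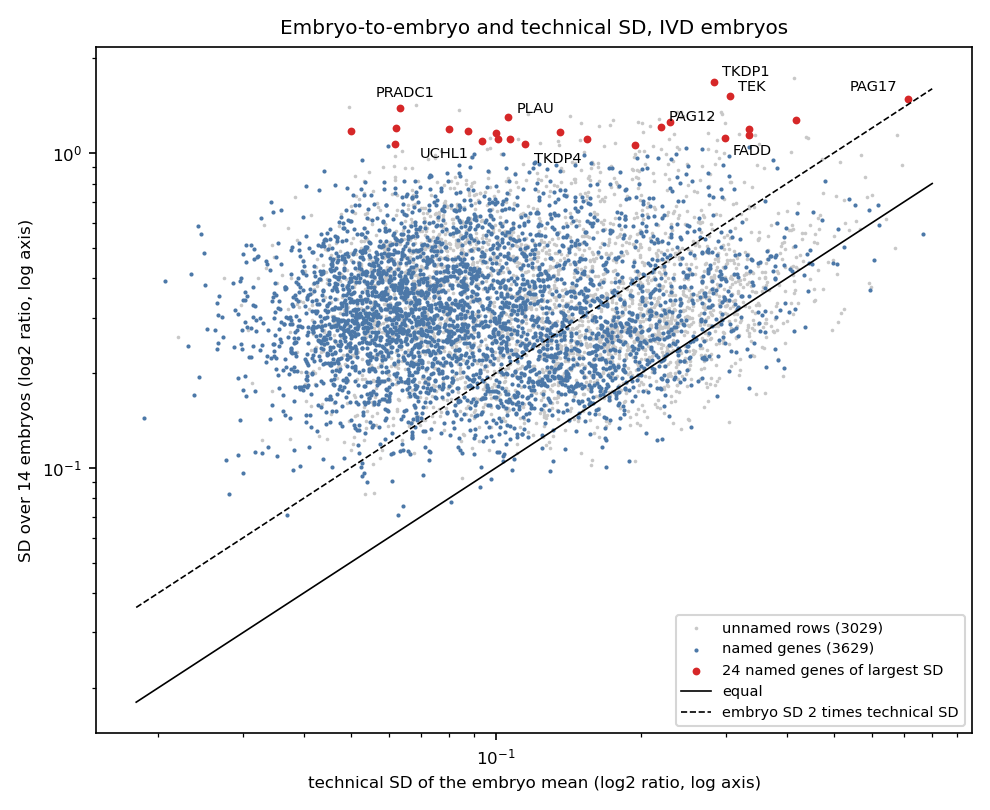
SD over the 14 IVD embryos (vertical axis, log2 units) against the technical SD from the dye-swap half-differences (horizontal axis, log2 units), both axes logarithmic, 1 point for each of 6658 features. Of these, 6261 lie above the line of equal SDs, and the named genes of largest SD, such as TKDP1 (1.68 against 0.28), lie at the top.

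In most features the SD over IVD embryos exceeded the technical SD. The technical SD was the SD over embryos of the half-difference between an embryo's 2 arrays, the error of their mean. A dye offset common to all embryos drops out of it, so it is smaller than the full difference between the 2 arrays. The median SD over embryos was 0.317, the median technical SD 0.101 and the median of their ratio 3.13. The SD over embryos exceeded the technical SD in 6261 of 6658 features and was at least 2 times as large in 4504 (67.6%). The test for differences between embryos, limma's moderated F over 14 embryos with the dye as a covariate, was past an adjusted p of 0.05 in 5209 features (78.2%), 3010 of them named genes. After the technical variance was subtracted, the median SD was 0.280. An SD of at least 1 was reached by 28 named genes (0.772%). The amplification was done once per embryo, so its error lies within the SD over embryos and cannot be told apart from the embryo's own level.

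The variation was spread unevenly over the gene lists. In the trophectoderm list the median SD was 0.514, and 15 of 23 genes lay above the median of all features. All 8 genes of sterol and fatty acid synthesis did so (median SD 0.385), led by the fatty acid binding protein FABP5 (SD 0.77, and 0.56 to 0.95 in its 3 clones), as did 22 of 32 X-linked genes (0.438) and 10 of 14 chromatin genes (0.438), where DNMT3A had an SD of 0.53 and NASP, a histone chaperone, 0.58. Of the cytosolic ribosomal proteins 14 of 39 did so (0.301), of the mitochondrial ones 13 of 37 (0.276), of oxidative phosphorylation 13 of 41 (0.267) and of DNA replication and cell cycle genes 4 of 13 (0.272). The blood and immune list had 1 of 9 (0.223). By embryo, the median of that list ran from -1.49 to -0.61, all below 0.

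Single members stood far above their list. DSC2, a desmosomal cadherin, had an SD of 1.05 in a junction list whose median SD was 0.290: it was lowest in embryos 1 (-0.93) and 6 (-0.51) and highest in 12_1 (2.60), 2 (2.54) and 5 (2.29). UBE2B, a ubiquitin-conjugating enzyme, had an SD of 1.00 in a proteasome and ubiquitin list of median 0.276. The small heat shock protein HSPB8 had 1.15 and the endoplasmic reticulum chaperone HSP90B1 0.81, in a heat shock and chaperone list of median 0.279. RPS9 had 0.70 among ribosomal proteins, from -3.52 in embryo 9 to -1.24 in embryo 8. SPARC, a matrix protein, had an SD of 0.87 beside a technical SD of 0.04 and ran from -4.04 in embryo 2 to -0.84 in embryo 8. For some list members 1 embryo carried much of the SD, among them ATF4 and HSPD1. ATF4, a stress response factor, had 0.579 over all embryos and 0.325 without embryo 12_3, where it was at -2.26, and the mitochondrial chaperone HSPD1 had 0.561 and 0.326 without the same embryo, where it was highest (1.69). Without 12_3, both had SDs near the median of all features.

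**Figure D2:**
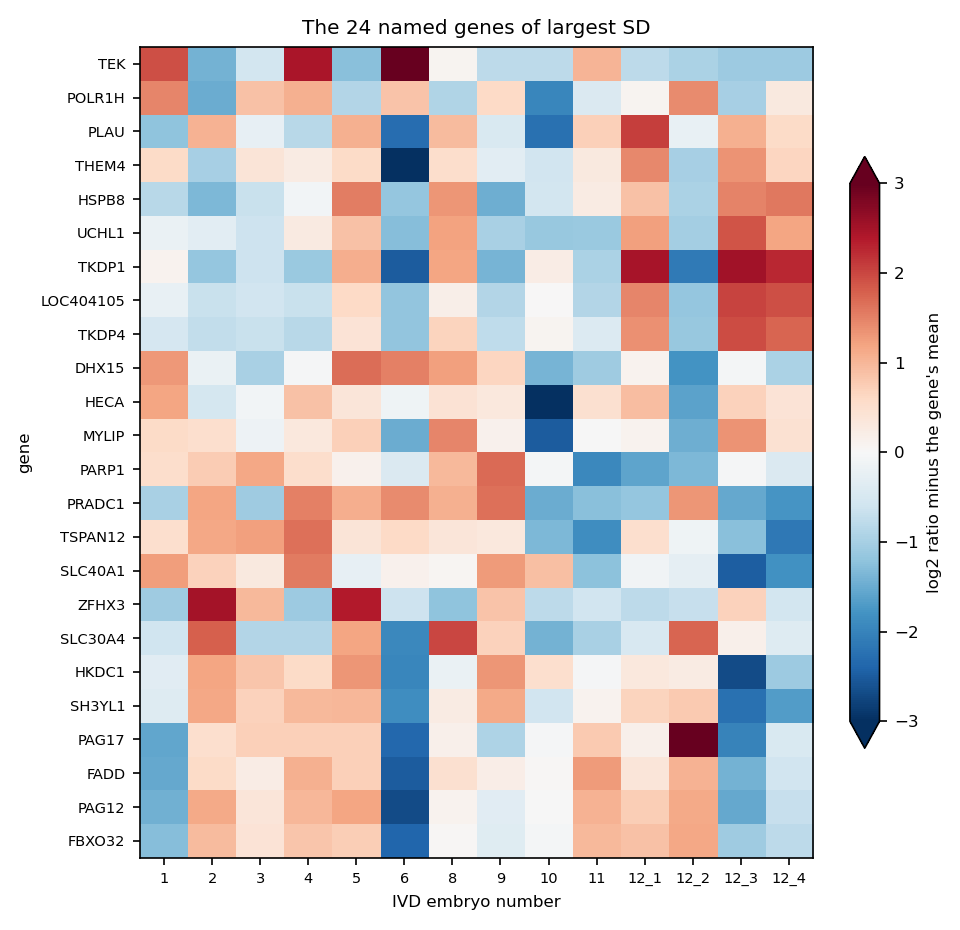
Log2 ratio of embryo to reference of the 24 named genes of largest SD over embryos (rows) in each of the 14 IVD embryos (columns), as colour, centred on each gene's mean. TKDP1, TKDP4 and LOC404105 are highest in embryos 12_1, 12_3 and 12_4, PAG12, FADD and FBXO32 are lowest in embryo 6, and PRADC1 has 7 embryos high and 7 low.

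The 24 named genes with the largest SD over embryos, all past the F test, included TKDP1 and TKDP4 of the TKDP family, PAG12 and PAG17 of the PAG family and genes of unrelated function. Chosen for their SD, they are described with no further test. TKDP1 had the largest (1.68, technical SD 0.28). TEK, the angiopoietin receptor of blood vessel lining, followed with 1.52 (technical 0.30): it was below 0 in 11 embryos (lowest -2.49, median of all -1.87) and above 0 in embryos 6 (2.12), 4 (1.37) and 1 (0.86). SLC30A4, a zinc exporter, had 1.27 and ran from -0.62 in embryo 6 to 3.32 in embryo 8. ZFHX3, a zinc finger transcription factor, had 1.26, with embryos 2 (1.94) and 5 (1.82) far above the median of -1.15.

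HKDC1, a hexokinase, had an SD of 1.2 beside a technical SD of 0.06, from -2.08 in embryo 12_3 and -1.36 in embryo 6 to 1.94 in embryo 5. SH3YL1, a phosphoinositide-binding protein, followed it (SD 1.18, r = 0.93, rho = 0.89, n = 14 embryos). SLC40A1, the iron exporter ferroportin, had 1.18 and ran from -2.66 in embryo 12_3 to 1.36 in embryo 4. UCHL1, a ubiquitin hydrolase, had 1.09, from -5.13 in embryo 6 to -1.96 in 12_3, and so stayed below the array median in every embryo.

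Among the 24 genes, HECA and THEM4 lost the largest share of their SD when 1 embryo was left out, followed by PAG17 (described below). HECA was at -3.56 in embryo 10, with the next lowest embryo at -1.80, and its SD fell from 1.19 to 0.73 without embryo 10. THEM4, a thioesterase, was at -2.56 in embryo 6, with the next lowest at -0.41, and its SD fell from 1.17 to 0.77 without embryo 6. HECA was followed by VAPA, a membrane contact protein of the endoplasmic reticulum, with r = 0.99 (rho = 0.96, n = 14): VAPA was also lowest in embryos 10 (-1.48) and 12_2 (-0.79). The 2 clones of VAPA correlated at 0.18, with SDs of 0.18 and 1.00, so its pattern is that of 1 clone.

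Of 276 pairs among these 24 genes, 18 had a correlation over embryos of at least 0.8 and 0 of at most -0.8. Over all pairs of named genes 0.261% reached 0.8 in size and the median was 0.01. A correlation over 14 embryos takes both genes from the same arrays, so it was computed a second time with 1 gene from the Cy5-embryo arrays and the other from the Cy3-embryo arrays, given below as the value across opposite arrays. Partners were picked for the largest correlation and carry no p.

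**Figure D3:**
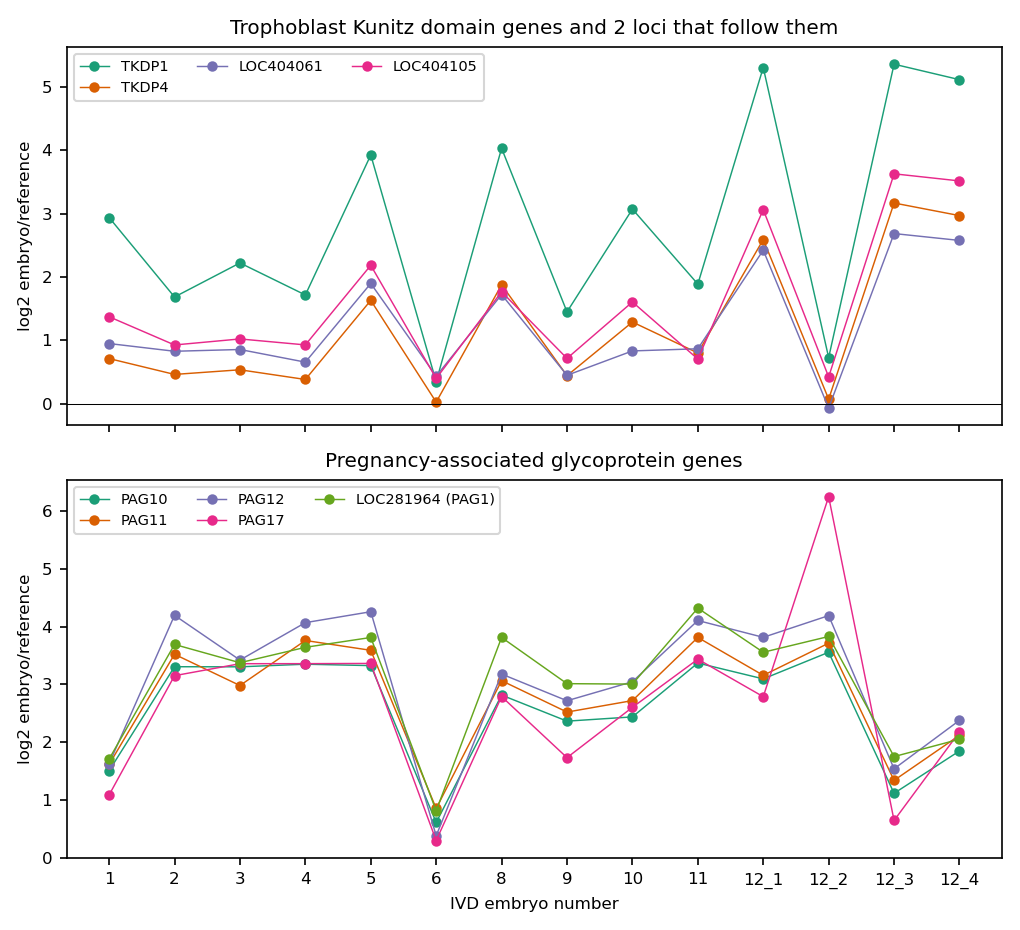
Log2 ratio of embryo to reference (vertical axis) in each of the 14 IVD embryos (horizontal axis), above for TKDP1, TKDP4 and the loci LOC404061 and LOC404105, below for 5 PAG genes; lines join the values of 1 gene and imply no order of embryos. The upper genes are highest in embryos 12_1, 12_3 and 12_4, the 5 PAG genes are lowest in embryo 6, and PAG17 in embryo 12_2 (6.25) lies apart from the others.

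TKDP1 and TKDP4 shared a pattern over the embryos (r = 0.97, rho = 0.97, n = 14), and so did 2 loci without a gene name, LOC404105 and LOC404061, which were picked for following them. TKDP1 was at 5.36 in embryo 12_3, 5.30 in 12_1, 5.11 in 12_4, 4.03 in 8, 3.92 in 5, 3.07 in 10, 2.94 in 1, 2.22 in 3, 1.89 in 11, 1.72 in 4, 1.68 in 2, 1.45 in 9, 0.73 in 12_2 and 0.35 in 6. The 3 highest embryos all carry the number 12, and the fourth embryo of that number was the second lowest of 14. TKDP4 (SD 1.07) was also highest in 12_3 (3.17), 12_4 (2.97) and 12_1 (2.59), and lowest in 6 (0.03) and 12_2 (0.07). LOC404105 ran from 0.40 in embryo 6 to 3.63 in 12_3, and LOC404061 from -0.07 in 12_2 to 2.69 in 12_3. The same 3 embryos were highest in all 4 genes, and embryos 6 and 12_2 were among the lowest in each.

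The 6 pairs of these 4 genes had r from 0.959 to 0.979, and from 0.939 to 0.959 across opposite arrays. Without embryo 6 the range was 0.963 to 0.976. Over the 10 embryos outside 12_1 to 12_4 the SD of TKDP4 was 0.594 and that of LOC404105 0.555, so embryos of that number carried much of their spread. The 2 clones of TKDP4 correlated at 0.920, with means of 0.40 and 2.03, and those of LOC404105 at 0.985. In the RefSeq gene table the 4 genes lie on 1 chromosome within a run of 8 protein-coding genes. Members of a gene family can be similar in sequence, and the extent to which a clone of one binds transcripts of another was not tested.

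Other genes were found on both sides of the pattern. CXCL16, a chemokine, ran with it: it was highest in 12_1 (-0.44), 12_4 (-0.69) and 12_3 (-0.84) and lowest in 9 (-3.48) and 12_2 (-3.42). HSPB8 correlated with LOC404061 at 0.88 (rho = 0.84, n = 14). PGAM1, a glycolytic enzyme, ran opposite to TKDP1 (r = -0.92, rho = -0.93, n = 14), with its lowest values in 12_3 (-0.54), 12_1 (-0.44) and 12_4 (-0.27) and its highest in 6 (0.91), and its 3 clones followed each other (r from 0.905 to 0.978). SOD2, the mitochondrial superoxide dismutase, did so as well (r = -0.92, rho = -0.93), from -0.92 in 12_1 to 0.78 in 6. CD99 and GRB10 were further genes lowest in 12_3 and opposite to LOC404105 (r = -0.93 and -0.91); the 2 clones of GRB10 correlated at 0.234, so its value rests on clones that did not follow each other.

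The PAG genes followed here, 5 of those measured, shared another pattern. PAG8 was also measured and is left out of this set. Its 2 clones had means of 0.23 and 1.07, SDs of 0.31 and 0.57, and correlated at -0.343. PAG12 was at 4.26 in embryo 5, 4.20 in 2, 4.19 in 12_2, 4.11 in 11, 4.07 in 4, 3.82 in 12_1, 3.42 in 3, 3.18 in 8, 3.05 in 10, 2.72 in 9, 2.38 in 12_4, 1.63 in 1, 1.54 in 12_3 and 0.38 in 6. Embryo 6 was thus lowest by more than 2-fold, and embryos 12_3, 1 and 12_4 came next, while 12_2, which was low in TKDP genes, was among the highest. PAG11 ran from 0.85 in embryo 6 to 3.81 in embryo 11 (SD 0.963), PAG10 from 0.61 in 6 to 3.56 in 12_2 (SD 0.957) and LOC281964, listed with PAG1 as a synonym, from 0.81 in 6 to 4.32 in 11 (SD 1.04). All were lowest in embryo 6.

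PAG17 rests on 1 array in 1 embryo. In embryo 12_2 its Cy3-embryo array gave 9.35 and its Cy5-embryo array 3.15, and their mean of 6.25 is far above the next embryo (3.44). Without 12_2 its SD was 1.10 in place of 1.48, its technical SD 0.294 in place of 0.712, and its correlation with PAG12 0.958. The high value in 12_2 is therefore not repeated by the exchanged dye.

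The 10 pairs of the 5 PAG genes, PAG8 left out, had r from 0.80 to 0.987 (median 0.962), and from 0.763 to 0.936 across opposite arrays. Without embryo 6 they ran from 0.740 to 0.984 with a median of 0.939. The 20 pairs of 1 of the 5 PAG genes with TKDP1, TKDP4 or the 2 loci had r from -0.334 to -0.0424, far from the values within each set. In the RefSeq table the 5 PAG genes lie on 1 chromosome within a run of 25 protein-coding genes. FADD, a death receptor adaptor, FBXO32, an F-box protein, IP6K2, an inositol phosphate kinase, and MIB2, a ubiquitin ligase, lie on 4 chromosomes and followed the PAG genes with r from 0.807 to 0.992 over 20 pairs. FADD, for instance, was lowest in embryo 6 (1.74), 1 (2.68) and 12_3 (2.82) and highest in 11 (5.51). The 2 clones of MIB2 correlated at -0.20, with SDs of 0.15 and 1.13. Whether the clones of these 4 genes bind PAG transcripts was not tested.

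The other trophectoderm genes followed neither family as a body. Of the 23, 3 correlated with TKDP1 at 0.8 or more, namely TKDP4, the tetraspanin TSPAN1 (0.885) and GATA3 (0.825), and 1 with PAG12, namely PAG11. The value of GATA3 averages 2 clones that correlated at 0.18, with SDs of 0.27 and 1.04. What many shared was embryo 6: 11 of 23 were lowest there, KRT18 (1.73), KRT19 (0.42), KRT8 (0.20) and PTGS2 (4.52) among them, while 362 of all named genes (9.98%) were. SSLP1, a secreted protein of the Ly-6 type (SD 0.964), was highest in embryos 12_1 (3.79) and 3 (3.74) and 1.66 at the median. Less RNA per cell and fewer trophectoderm cells cannot be told apart in whole embryos. Embryo 6 had 1017 rows without a value against 1001.5 to 1871.5 in the group, and its 2 arrays correlated at 0.628.

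PLAU, the urokinase plasminogen activator that trophoblast uses to break down matrix, had an SD of 1.30 beside a technical SD of 0.11. It was at -2.49 in embryo 6, -2.45 in 10, -1.42 in 1, -1.05 in 4, -0.68 in 9, -0.47 in 3, -0.45 in 12_2, 0.36 in 12_4, 0.49 in 11, 0.74 in 8, 0.83 in 2, 0.86 in 5 and 12_3 and 1.86 in 12_1. Embryos 6 and 10 lay apart below the others, by a gap of 1.03. IGFBP7, an insulin-like growth factor binding protein, followed it closely over a smaller range of -1.50 to -0.26 (r = 0.97, rho = 0.98, n = 14, 0.96 across opposite arrays), although its 2 clones correlated at 0.53 with SDs of 0.11 and 0.60. PPL, a desmosomal plakin, and CFD, complement factor D, did so with r = 0.95 and 0.94, and LAMTOR2, of the lysosomal signalling complex, ran opposite (r = -0.90). UCHL1 had IGFBP3, another growth factor binding protein, and SOD1, the cytosolic superoxide dismutase, as its closest partners (r = 0.93 for both).

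**Figure D4:**
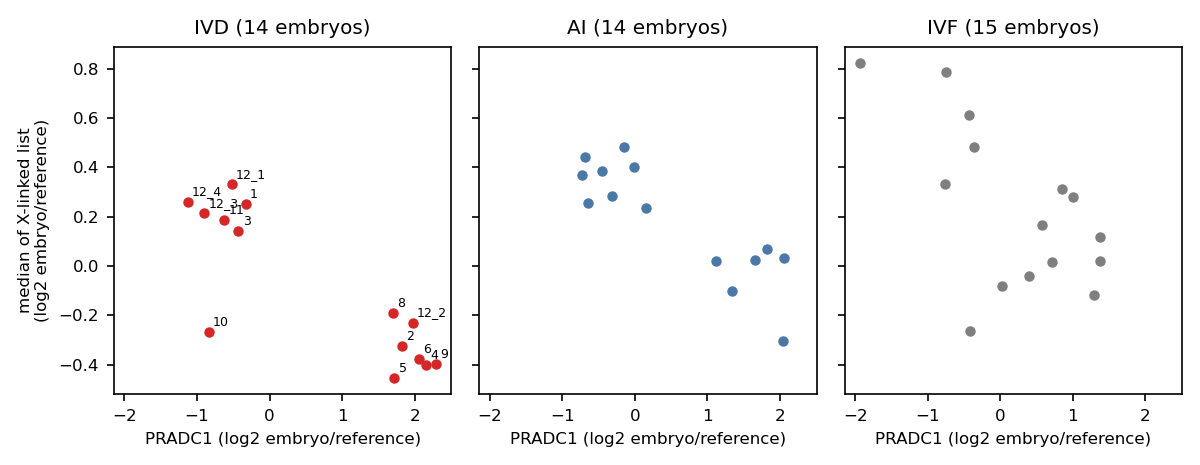
PRADC1 log2 ratio of embryo to reference (horizontal axis) against the median log2 ratio of the measured X-linked genes (vertical axis), 1 point per embryo, in IVD (14 embryos), AI (14) and IVF (15). IVD embryos fall into 7 between -1.13 and -0.33 and 7 between 1.70 and 2.29 of PRADC1.

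PRADC1, a secreted glycoprotein with a protease-associated domain, split the IVD embryos. It was at 2.29 in embryo 9, 2.16 in 4, 2.06 in 6, 1.97 in 12_2, 1.83 in 2, 1.72 in 5 and 1.70 in 8, and at -0.33 in 1, -0.43 in 3, -0.52 in 12_1, -0.62 in 11, -0.84 in 10, -0.90 in 12_3 and -1.13 in 12_4. No embryo lay in the gap of 2.02 log2 units, and the technical SD was 0.06. Of 6658 features, 31 (0.466%) had the same 7 embryos lowest, 13 of them named genes, and 12 had them highest, PRADC1 and 6 other named genes among them. The 6 others were VDAC2 (a mitochondrial outer membrane channel), CDCA8 (of the chromosomal passenger complex), CCDC47, COPS4, RAB4B and TMEM97. Features of neighbouring rows can share a clone, so these counts are not of independent transcripts.

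The genes with the order reversed included 3 of the 32 measured members of the X-linked list, which does not hold every X-linked gene on the array: HSD17B10, a mitochondrial dehydrogenase (0.30 to 0.74 in the 7 embryos where PRADC1 was high, 1.02 to 1.60 in the others), PLP2, a membrane protein (-2.98 to -2.01 and -1.48 to -0.28), and RBBP7, a histone-binding chromatin protein. VMA21, PRDX4, GNL3L, RBMX2, VBP1, SERTAD4, TCF7L1, ARHGAP17, ZNF45 and LOC515169 were the other named genes with these 7 embryos lowest. They are not in the list, which does not settle whether any of them is X-linked, so the 3 are not a full count. Of the X-linked list 0 had them highest.

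The median of the X-linked list by embryo was -0.46 in 5, -0.40 in 4 and 9, -0.38 in 6, -0.33 in 2, -0.27 in 10, -0.23 in 12_2, -0.19 in 8, 0.14 in 3, 0.19 in 11, 0.22 in 12_3, 0.25 in 1, 0.26 in 12_4 and 0.33 in 12_1. Of the 7 embryos highest in PRADC1, 6 were among the 7 lowest in this median, and embryo 10 was low in both. In AI, PRADC1 also had a wide gap, with 8 embryos at or below 0.15 and 6 at or above 1.12, and those 6 were the 6 lowest in the X-linked median (29 members measured). In IVF it ran from -1.94 to 1.38, the widest gap had 1 embryo below it, 4 of the 7 highest embryos were among the 7 lowest in the X-linked median, and r was -0.620 (permutation p = 0.0139, rho = -0.514, permutation p = 0.0525, n = 15). Without the 2 embryos farthest from the median of PRADC1 the IVF relation had r = -0.446 (permutation p = 0.126) and so rests on them. No pooled correlation is given for IVD or AI, where PRADC1 falls into separate clusters. The labels give no embryo's sex, no Y-linked gene was measured, and a relation to sex was not tested.

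At the other end, some transcripts far from the reference hardly differed between IVD embryos. Among genes at least 2-fold from the array median, ETF1, a translation termination factor, had the smallest SD over embryos: 0.0781 at a mean of 1.28, with all embryos between 1.11 and 1.38. The technical SD of ETF1 was 0.081, so no difference between embryos was detectable at the precision of 2 arrays. CORO1A, an actin regulator of blood cells, had an SD of 0.129 at -2.52, below its technical SD of 0.205. RAN, the small GTPase of nuclear transport, had 0.134 at 1.03 and DYNC1H1, the dynein heavy chain, 0.111 at -1.40. For RAN and DYNC1H1 the mean over clones hides disagreement: the 2 clones of RAN correlated at -0.398 and had SDs of 0.175 and 0.283, and the 3 clones of DYNC1H1 correlated as low as -0.510.

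In a principal component analysis of the IVD features, 22.3% of the variance lay on the leading component, which had embryos 12_3 (31.6), 12_1 (20.8) and 12_4 (19.4) at one end and embryo 6 (-25.1) at the other. TKDP1, TKDP4, PLAU, HSPB8, UCHL1 and THEM4 were among its largest loadings on the side of 12_3, and SLC40A1, TEK and PRADC1 among those on the side of embryo 6. The second component held 13.6% and set embryo 10 (-30.7) apart. SPARC and the adenylate kinase AK4 loaded on the side of embryo 10, TSPAN12, PRADC1, MYLIP and HECA on the other. Over 6 relations of the components with rows without a value, the correlation of the 2 arrays and the SD of half-differences, the lowest adjusted p was 0.102 (permutation, rho = -0.631 for the second component and the SD of half-differences, r = -0.554).

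The 4 embryos that share the number 12 were more alike than most sets of 4, through 3 of them. The mean pairwise correlation of their deviations was 0.0755, against -0.0369 among the other 10, and 20 of the 1001 possible sets of 4 were as high (exact permutation p = 0.03996, two-sided). The pairs of 12_1, 12_3 and 12_4 had r of 0.178 to 0.329, and 12_2 had r of -0.152 to -0.0696 with them. Between the 4 and the other 10, 8 features (0.12%) were higher and 12 (0.18%) lower by limma at an adjusted p under 0.05, all of them named. The 4 and the other 10 did not overlap in 17 of these 20, a share fixed largely by the call, and in 87 (1.31%) of all features. Unadjusted p under 0.05 was reached by 1167 features. With the arrays centred on all their measured rows the split was 5 higher and 16 lower.

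PLIN3, a coat protein of lipid droplets, was higher in the 4 (mean 2.26 against 1.31, difference 0.94, SE 0.139, limma adjusted p = 0.0235). SHC1, a growth factor adaptor, was higher by 0.94, GALT, an enzyme of galactose use, by 0.91, MARCKSL1, an actin-linked kinase substrate, by 0.85, and CST3, a cysteine protease inhibitor, by 0.69. TXNDC9 was lower (0.26 against 1.44, difference -1.17), as were PSPH, the last enzyme of serine synthesis (-1.13), LMBRD1, a lysosomal cobalamin carrier (-0.87), and the chromatin protein HMGB1 (-0.87). PSPH was at -0.08 in 12_1, 0.03 in 12_4, 0.13 in 12_3 and 0.87 in 12_2, and between 1.02 and 1.83 in the other 10. TKDP1 differed by 1.80 and was not called (limma adjusted p = 0.251). The count of 20 was not stable: it was 0 with the deposited values as given and 0 without any 1 of embryos 1, 2, 3, 9, 12_1, 12_3 and 12_4, 2 without 4, 7 without 6, 69 without 10, 91 without 11 and 160 without 12_2.

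The medians of the respiration and ribosome lists went together over the 14 embryos by Pearson's correlation, and not past the threshold by Spearman's. Of 28 pairs of list medians among 8 lists, 2 were past an adjusted p of 0.05 by Pearson's correlation. Oxidative phosphorylation (41 genes) and cytosolic ribosomal proteins (39) had r = 0.754 (permutation p = 0.00153, adjusted 0.0428) and rho = 0.763 (permutation p = 0.00238, adjusted 0.0666), and cytosolic and mitochondrial ribosomal proteins r = 0.719 (permutation p = 0.00313, adjusted 0.0438) and rho = 0.710 (permutation p = 0.0056, adjusted 0.0784). Without the 2 embryos farthest from the median, r was 0.718 and 0.689, with no pair past the threshold. Both correlations were as large across opposite arrays (0.769 and 0.733). The size of the shared movement was small, as the median of oxidative phosphorylation ran from -0.38 to 0.05 and that of cytosolic ribosomal proteins from -1.17 to -0.44. The count fell to 0 without embryo 3, 4, 8, 9, 11 or 12_2 and to 1 without 1 or 12_4. The trophectoderm and junction lists (r = 0.594, permutation p = 0.0253, adjusted 0.118; rho = 0.508) had r = 0.148 without embryos 12_1 and 6.

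**Figure D5:**
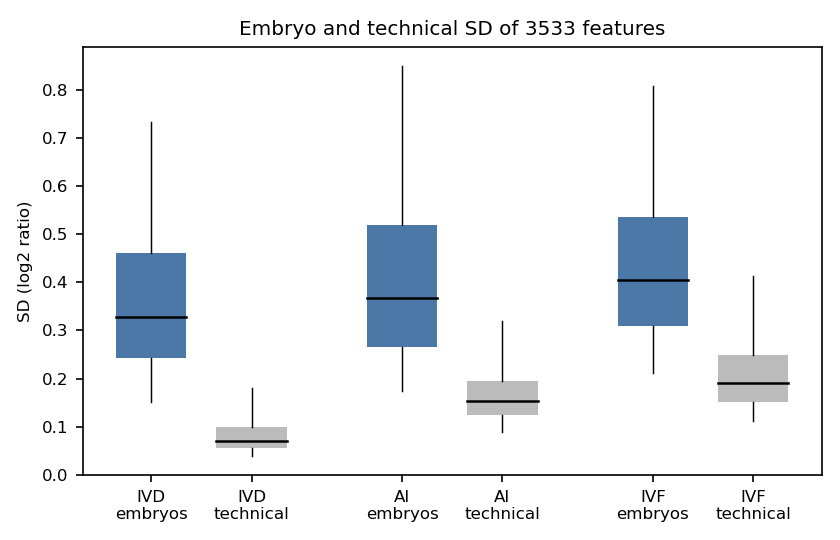
SD over embryos (log2 units) of the 3533 features measured in all 43 embryos, by group, with the technical SD of the same features beside it; boxes span the 25th to 75th percentile of the features, thin lines the 5th to 95th percentile, and the bar in each box is the median. IVD embryos have the lowest median SD (0.327, beside 0.368 for AI and 0.405 for IVF) and the lowest median technical SD (0.0715, beside 0.155 and 0.191).

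Most features had a smaller SD over embryos in IVD than in AI or IVF. On the 3533 features measured on every array, IVD embryos had a median SD of 0.327, AI embryos 0.368 and IVF embryos 0.405. The SD was larger in IVD than in AI for 1251 features (35.4%) and larger than in IVF for 1038 (29.4%). The technical SD had the same order, 0.0715, 0.155 and 0.191. Rows without a value were also fewest in IVD, with 1001.5 to 1871.5 such rows per IVD embryo, 3613 to 5713 per AI embryo and 3076.5 to 5099.5 per IVF embryo, although there AI stood highest. The part of these in the difference of SDs was not tested. By feature, limma on absolute deviations from the group median called 2 features (0.0566%) more variable and 1 (0.0283%) less variable in IVD than in AI, and 0 (0%) each way against IVF. Unadjusted p under 0.05 was reached by 322 and 312 features.

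UCHL1 and FHL2, a LIM domain protein, were the genes more variable in IVD than in AI: UCHL1 had an SD of 1.09 against 0.213 (adjusted p = 0.0275) and FHL2 0.781 against 0.194 (adjusted p = 0.0167). NFATC4, a calcium-regulated transcription factor, was less variable (0.157 against 0.908, adjusted p = 0.0275). None of these 3 calls remained with the deposited values as given, with either dye alone, with squared deviations or without embryos 12_1 to 12_4. The genes with the largest SD in IVD, picked for it, also had other SDs elsewhere. TKDP4 had 0.970 on the rows shared by all groups, against 0.348 in AI and 0.586 in IVF. PLAU had 1.30, 0.532 and 0.603, PAG12 1.23, 0.585 and 1.12, and PRADC1 1.39, 1.09 and 0.963. No such difference was past the threshold. TKDP4 and LOC404061 correlated at 0.332 over AI and 0.582 over IVF embryos, and PAG11 and PAG12 at 0.811 and 0.657. These correlations used the rows measured within each group, where TKDP4 had an SD of 0.484 and PAG12 0.458 in AI. The rows and clones can therefore differ from those of the SDs above and of the IVD correlations.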

How the data were processed

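Single embryos and a common reference were co-hybridised on 2-colour cDNA arrays, 2 arrays per embryo with the dyes exchanged. The authors deposited log2 ratios, which are the values used, in 1 table of 16416 rows and 86 columns, 1 column per array. The image analysis, background correction, normalization and reasons for empty spots were not given in the sources used here. Of the cells, 280751 were empty, 3308 held the word null and 16 at a common ceiling (none in IVD) were set to missing. Spot intensities were not used, and the number of arrays limits the precision.

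From every array its median was subtracted, taken over the 5558 rows that all 86 arrays measured, the Cy3-embryo array was turned in sign, and the 2 arrays of an embryo were averaged. Rows measured on all 28 IVD arrays were kept (10922, 66.5%), which left out 5494, and rows naming 1 and the same gene were averaged. Gene names came from the platform's annotation: 11196 rows have 1 symbol, 190 several and 5030 none, and 11182 matched the RefSeq table of ARS-UCD2.0 by gene identifier. In 3648 pairs of neighbouring rows of the same clone, embryo deviations correlated at r = 0.929, so rows are not independent spots of different genes. No sequences or coordinates are given.

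Levels, embryo effects, embryos 12_1 to 12_4 against the other 10, and spreads (absolute deviations from the group median) were fitted with limma 3.58.1 in R 4.3.3, two-sided, over all features, with Benjamini-Hochberg adjustment at 0.05; a level call also needed a mean of at least 1 in size on the log2 scale. The scripts were tested on simulated data. List medians were compared with 100000 permutations. Figures were drawn with matplotlib 3.10.9. Apart from those of the embryo effect, p-values rest on the spread between embryos, which may not all be independent. The p-values of the embryo effect rest on the difference between the arrays of an embryo. These arrays share the same amplified RNA, so that test is against array error and does not cover the error of amplification.

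The group, the gene lists, the tests and the alternatives were chosen with earlier results of these data known. The rule for named genes takes the 12 highest and 12 lowest means, the 24 largest SDs among genes past the F test, the 10 smallest SDs among genes at least 2-fold from the median, the 8 highest and 8 lowest of each other comparison past the threshold, up to 4 members of each of 28 lists by SD, and the 8 largest loadings on either side of 2 components. The rule also names XIST and every measured Y-linked gene, and no value of XIST is given here. Genes that follow a named gene, further members of a list and the PRADC1 sets were chosen after their values were seen. The embryo effect within IVD on the features of all 43 embryos and the correlations across opposite arrays were added after seeing the data.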

Additional observations from a re-analysis of the deposited data

Results flagged for a closer look

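Among the genes called between embryos 12_1 to 12_4 and the other 10, 32 sets of embryos were examined for a single embryo far from the rest, by the gap to its nearest neighbour as a share of the set's range. Such a gap passes the 95% critical value in about 1 of 20 sets by chance, and it did so in 5. PLIN3 in embryo 12_2 was at 1.94, below the other 3 embryos of its number (gap ratio 0.842, critical value 0.829). Among the other 10 embryos, where the critical value is 0.466, embryo 11 was apart in 3 genes: PPP1CA at 0.50 (0.518), CST3 at -2.28 (0.502) and TXNDC9 at 0.54 (0.474). Each of these values of embryo 11 lay on the side of the embryos numbered 12. LMBRD1 in embryo 6 was at 3.01, on the far side from them (0.565).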

How the results depend on the processing

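Only selected genes were followed under the alternatives for their direction. They were the 24 of highest or lowest mean, 16 of the comparison of 12_1 to 12_4 and 3 of the spread. Of these 0 changed direction, and the direction of other named genes was not followed. The level split did turn: 878 higher and 942 lower became 939 and 861 when centred on all measured rows. With Cy3 alone it was 1354 and 780. The number of features at a 2-fold level ran from 1756 (arrays scaled) to 2344 (Cy5 alone) under other centring, scaling, row filters or single dyes, and was 3163 of 10922 with rows kept apart (more features tested). It ran from 1796 to 1844 with embryos left out in turn, and the 24 genes named for their level kept their call in all 480 values. The embryo effect was called in 8645 rows kept apart, and in 3370 (IVD), 2748 (AI) and 2507 (IVF) of the 3533 features of all 43 embryos (fewer features tested). It was called in 5093 to 5229 with embryos left out in turn, and for the 24 genes of largest SD in all 480 values.

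The comparison of 12_1 to 12_4 with the other 10 was the least stable: 0 calls with the deposited values as given, 35 with rows of at least 10 embryos, 71 with rows kept apart, and 0 to 160 with embryos left out in turn. Of its 320 values for named genes, 168 lost the call. The cause was not tested. For IVD against AI, 0 features were called with values as given, the embryo in Cy3 alone, in Cy5 alone, squared deviations, without 12_1 to 12_4 or with the embryo number as a replicate block. Against IVF there were 0 calls under every alternative, the replicate block included. Embryos of the same number in IVD and another group had correlations from -0.196 to 0.217 (of 14, 2 were over 0.1, both with IVF). Whether a shared number marks a shared origin was not tested. The order IVD, AI, IVF of the median SD held under all settings run; with values as given it was 0.349, 0.479 and 0.579. The pairs of list medians called numbered 2 or 3 under other centring, scaling, row filters or opposite arrays, 0 without the 2 farthest embryos, and 0 to 3 with embryos left out in turn.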

Other observations

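Other gene groups of the IVD embryos were described in the same way, by their level over the reference (2-fold and limma adjusted p under 0.05) and their SD over the 14 embryos. Over all features 13.2% were higher, 14.1% lower and 78.2% past the embryo test, and several of the counts below lie near or under these shares. Of 8 measured genes of sterol and fatty acid synthesis and storage 4 were higher and 1 lower (median log2 ratio 0.93): the fatty acid binding proteins FABP3 (1.96) and FABP5 (1.77, with 3 clones at 0.27 to 2.66), the lipid droplet protein PLIN2 (1.86) and ACLY (1.26), which makes acetyl-CoA for lipid synthesis, were higher, and LSS, lanosterol synthase, was lower (-1.57). Of 14 chromatin genes 5 were higher and 1 lower, with DNMT3A, a DNA methyltransferase, at 1.80 and HDAC3, a histone deacetylase, the lower one. Of 24 oxidative stress genes 5 were higher and 4 lower: GLRX, a glutaredoxin, was at 2.48, GSR, glutathione reductase, at 1.86 and GPX8 at -4.11. HMOX1, heme oxygenase, had the largest SD of that list (0.73), followed by SOD1 (0.66) and SOD2 (0.59), and 15 of the 24 lay above the median SD of all features.

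Of 12 genes of serine synthesis and the ATF4 response 2 were higher and 2 lower, and all 12 passed the embryo test. PSPH (1.04) and MTHFD2 (1.47), a mitochondrial folate enzyme, were higher, and SHMT2 (-2.18) and DDIT3 (-1.71) lower. Of 12 imprinted genes 1 was higher, UBE3A (1.54), and 3 lower, SGCE (-5.12), PLAGL1 (-3.44) and IGF2 (-2.0). PLAGL1 had an SD of 0.636 and of 0.423 without embryo 12_4, while IGF2 had an SD of 0.16 over 2 clones that correlated at 0.06 (means -3.40 and -0.61). Of 9 interferon response genes 0 were higher and 1 lower, PSMB9 (-1.39, SD 0.321 and 0.207 without embryo 12_4). Of 10 survival and apoptosis genes 3 were higher and 2 lower. There MDM2, the ubiquitin ligase of p53, had the largest SD (0.81), and PHLDA1 had 0.391 with embryo 6 and 0.207 without it, as the mean of 2 clones that correlated at -0.33 (means -3.77 and -0.49). Of 27 heat shock and chaperone genes 8 were higher and 3 lower, of 28 proteasome and ubiquitin genes 3 and 2, of 32 X-linked genes 6 and 6, of 13 DNA replication and cell cycle genes 1 and 5, and of 13 immediate early genes 0 and 1, which was FOS (-2.27). CCNE1, cyclin E, was the replication gene that was higher (2.23).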
